A study of Mus musculus with 13 samples.

Results

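The 3 synapsins and 6 other genes of the synaptic vesicle release machinery were followed in motoneurons of the SOD1-G93A mouse, a transgenic model of amyotrophic lateral sclerosis. The 9 genes are Syn1, Syn2, Syn3, Snap25, Vamp1, Vamp2, Stx1a, Syt1 and Sv2a, out of 48709 gene rows in each deposited table. Syn2 was chosen by its measured counts, which are low in AAV-miR SOD1, so its values in comparisons with that group are given as a description with no test. The other 8 were listed by function, with earlier results of these data known. Each symbol matched exactly 1 row, and all 9 rows passed the filter on low counts that left 17403 genes.

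All 13 mice carried the SOD1-G93A transgene, and no healthy mice were included. In the AAV-miR SOD1 group (4 mice), an adeno-associated virus injected into the cerebral ventricles shortly after birth drove an artificial microRNA against human SOD1 in astrocytes. The AAV-miR ctrl group (5 mice) received the control vector, and the non-injected group (4 mice) consisted of SOD1-G93A littermates without a vector. At 65 days of age, 500 lumbar motoneurons per mouse were cut out by laser from stained 14 µm sections and pooled, so each library is 1 mouse. The target of the microRNA is a human transcript in another cell type, so no mouse gene in these libraries checks the group labels. Because the captured material is a pool, fewer motoneuron contents and less RNA per motoneuron cannot be told apart.

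Synapsins are phosphoproteins on the outer face of synaptic vesicles that tether them in a reserve pool. Fusion is driven by the SNARE complex, in which a vesicle protein (Vamp1 or Vamp2) zippers with the plasma membrane proteins syntaxin 1 and Snap25. Synaptotagmins sense the calcium that triggers fusion, and Sv2 proteins are vesicle glycoproteins that bind synaptotagmin. Motoneurons use this machinery at the neuromuscular junction, and the transcripts measured here were those in the cell body.

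The promoters of Syn2 and Syn1 are shown because these are the synapsins with the larger counts here, and because motifs known from work on synapsin regulation can be read in them. Each line gives the 250 bases before the RefSeq start of the gene (assembly GRCm38.p6), read in the direction of transcription. For Syn2 this is chr6:115134652-115134901 on the plus strand, and for Syn1 it is chrX:20920919-20921168 on the minus strand. Capitals in Syn2 mark a match to the EGR1 letters GCGNGGGCG at -41 to -33 from the start. Capitals in Syn1 mark TTCAGCACC, the left part of the RE1 element bound by the neuronal repressor REST, at -232 to -224, and the cAMP response element TGACGTCA at -159 to -152.
Syn2 promoter: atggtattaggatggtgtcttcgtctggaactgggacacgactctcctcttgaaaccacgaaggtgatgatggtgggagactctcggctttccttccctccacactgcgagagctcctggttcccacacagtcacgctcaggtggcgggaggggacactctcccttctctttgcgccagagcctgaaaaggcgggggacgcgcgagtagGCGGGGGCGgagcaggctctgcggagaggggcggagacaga
Syn1 promoter: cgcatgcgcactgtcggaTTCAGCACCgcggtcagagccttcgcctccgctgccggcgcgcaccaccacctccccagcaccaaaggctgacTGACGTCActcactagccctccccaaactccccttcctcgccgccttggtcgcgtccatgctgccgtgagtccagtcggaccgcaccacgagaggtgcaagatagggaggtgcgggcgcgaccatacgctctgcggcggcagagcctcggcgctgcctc
Motifs were searched on both strands in 300-base windows, which also hold the first 50 bases of the gene. Of 32817 such mouse windows, 0.372% hold TTCAGCACC, 1.79% hold TGACGTCA and 5.56% hold GCGNGGGCG. The SP1 letters GGGCGG are in 35.6% of windows and were found for Syn2, Sv2a, Stx1a, Vamp1 and Syt1. The GC content was 62.3% for the Syn2 window and 68.3% for Syn1. Promoter windows were matched for 6 of the 9 genes, and Snap25, Syn3 and Vamp2 had no entry in the table used. No matched promoter held TATAAA (13.6% of windows) or the full RE1 motif (0.0122% of windows). A match to these letters is a description of the sequence.

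The libraries held 13.9 to 37.4 megacounts assigned to genes (median 22.6) and 21444 to 23275 detected genes. By group, they held 16.4 to 22.8 megacounts in AAV-miR SOD1, 13.9 to 37.3 in AAV-miR ctrl and 17.5 to 37.4 in non-injected mice. A count of 3 corresponded to 0.0802 to 0.216 CPM, the counts per megacount of library size, here without the scaling used for all other CPM. In 2 of the 13 tables the column header contradicts the sample label: AAV-miR ctrl replicate 3 carries a header of the non-injected kind and non-injected replicate 3 one of the AAV-miR ctrl kind, so following the headers exchanges these control libraries. The labels were followed, and results that depend on this are given both ways. Defining motoneuron markers were present in every library, with Chat at 39.1 to 155 CPM, Slc5a7 at 152 to 589 CPM and Isl1 at 1.77 to 21.0 CPM. The summed level of 7 motoneuron markers was 1376 to 2498 CPM in AAV-miR SOD1, 2000 to 4537 CPM in AAV-miR ctrl and 2221 to 5269 CPM in non-injected mice. The inhibitory interneuron list summed to 8.06 to 27.4 CPM over all libraries. Within it, Slc6a5 was at 4.31 to 16.3 CPM, Slc32a1 at 1.52 to 8.85 CPM and Gad1 at 0.569 to 3.83 CPM. Gad2 and Pax2 were each at 0 in 2 libraries. Transcripts of other cells were plentiful: 6 erythroid markers summed to 20786 to 46575 CPM in AAV-miR SOD1, 3511 to 27907 CPM in AAV-miR ctrl and 5487 to 20011 CPM in non-injected mice. The microglia list summed to 578 to 819, 326 to 975 and 209 to 503 CPM in the same order. Neutrophil markers summed to 27125 to 73070, 8709 to 61527 and 12071 to 21520 CPM. Oligodendrocyte markers summed to 1193 to 2737, 1137 to 4532 and 1833 to 2815 CPM, and their fitted differences were below 0 for 6 of 6 against each control group (medians -0.70 and -0.33 on the log2 scale). Astrocyte markers summed to 459 to 575, 568 to 1011 and 540 to 782 CPM, with 7 of 7 below 0 against AAV-miR ctrl (median -0.45) and 4 of 7 against non-injected mice (median -0.03). Of these 7, 1 was lower at an unadjusted p under 0.05 in each comparison (edgeR), where 8.54% and 11.5% of all genes were lower. The part of these other cells in the results below was not tested.

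The isoforms of the release machinery differed widely in level within control motoneurons. On the scale of CPM per kilobase of exon, which allows levels of different genes to be compared, the 9 control libraries (AAV-miR ctrl and non-injected) placed Snap25 first, with a median of 184 (range 89.2 to 270). Vamp1 followed at 43.2 (24.3 to 72.6), above Syn1 at 24.1 (9.20 to 36.3) and Vamp2 at 17.6 (6.23 to 18.3) CPM per kilobase. Syn2 stood at 8.56 (6.00 to 13.5) and Sv2a at 5.53 (4.18 to 6.56) CPM per kilobase. The lowest were Syt1 at 0.662 (0.392 to 1.89), Stx1a at 0.190 (0 to 1.74) and Syn3 at 0.146 (0.0728 to 0.323) CPM per kilobase.

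**Figure D1:**
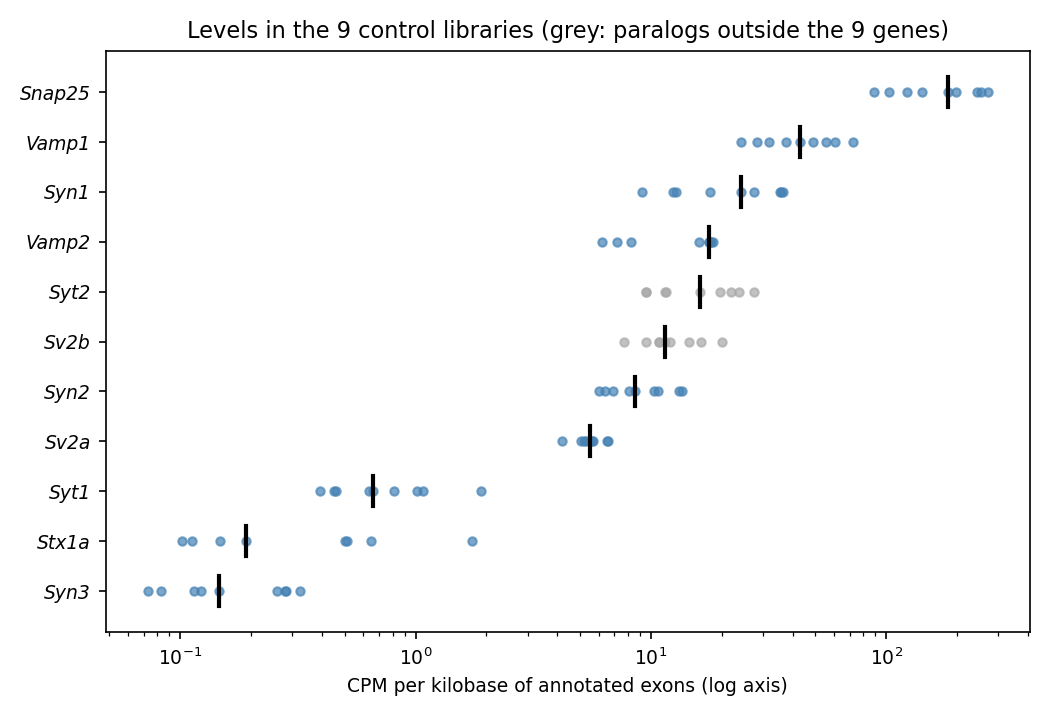
Level of each release gene, in CPM per kilobase of exon on a log axis, in the 9 control libraries. Points are libraries, the short vertical line is the median and the paralogs Syt2 and Sv2b are in grey; the library with Stx1a at 0 is not shown. Snap25 and Vamp1 lie above the other genes by median, and Syt1, Stx1a and Syn3 lie at the bottom.

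Another 2 paralogs that are not among the 9 genes belong in this order. Syt2, the fast calcium sensor of many spinal and hindbrain neurons, had a median of 16.1 CPM per kilobase (range 9.55 to 27.6). Sv2b, a close relative of Sv2a, had 11.5 CPM per kilobase (7.67 to 20.0). Syt2 exceeded Syt1 without overlap of their control ranges. Neighbours in the order by median had overlapping ranges except for Snap25 over Vamp1 and Sv2a over Syt1. The synapsins were therefore ordered Syn1, Syn2, Syn3, with Syn1 and Syn2 ranges that overlapped and a Syn3 range below both.

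Syn2 (ENSMUSG00000009394) lies on chr6:115134902-115282006, plus strand, of GRCm38. Its level was 30.8, 39.0, 31.0 and 38.2 CPM in AAV-miR SOD1 replicates 1 to 4. In AAV-miR ctrl it was 44.8, 48.4, 42.2, 60.2 and 72.8 CPM in replicates 1, 3, 4, 5 and 6. In non-injected mice it was 57.0, 95.0, 92.3 and 75.6 CPM in replicates 2, 3, 5 and 6. All 4 AAV-miR SOD1 libraries were below all 9 control libraries, and the gap between the highest of the former (39.0) and the lowest of the latter (42.2) was small. The fitted log2 difference from AAV-miR ctrl was -0.63 ± 0.21 (SE), a level 1.55-fold lower, and that from non-injected mice was -1.20 ± 0.22, a level 2.30-fold lower. Against both control groups together it was -0.92 ± 0.20, or 1.89-fold lower.

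Among the 9 genes, Syn2 was the 1 gene whose AAV-miR SOD1 values did not overlap with AAV-miR ctrl, with non-injected mice, or with both together. Of all 17403 genes, 2.46% had every AAV-miR SOD1 library below every AAV-miR ctrl library, 5.81% had them below every non-injected library, and 1.23% below all 9 controls. Since Syn2 was chosen for this drop, these shares say nothing further about it. The AAV-miR SOD1 libraries are not affected by the header conflict. Following the headers only exchanges control libraries, so the absence of overlap for Syn2, which held against all 9 controls, could not change. The fitted difference from AAV-miR ctrl was -0.86 with the headers and -0.61 without both libraries that have a conflicting header. The difference from non-injected mice was -0.98 and -1.03 in the same order.

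Between the 2 control groups, a comparison that the choice of the gene did not use directly although it shares the control libraries, no difference in Syn2 passed the adjusted threshold. The ranges were 42.2 to 72.8 CPM (AAV-miR ctrl) and 57.0 to 95.0 CPM (non-injected), so the groups overlapped. The log2 difference was -0.57 ± 0.21 (edgeR quasi-likelihood test, unadjusted p = 0.0148, adjusted p = 1.00), and it shrank to -0.12 when the headers were followed. At an unadjusted p under 0.05, 3.61% of genes differed between these control groups, and none passed the adjusted threshold with edgeR (DESeq2 called 2, limma-voom 0).

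**Figure D2:**
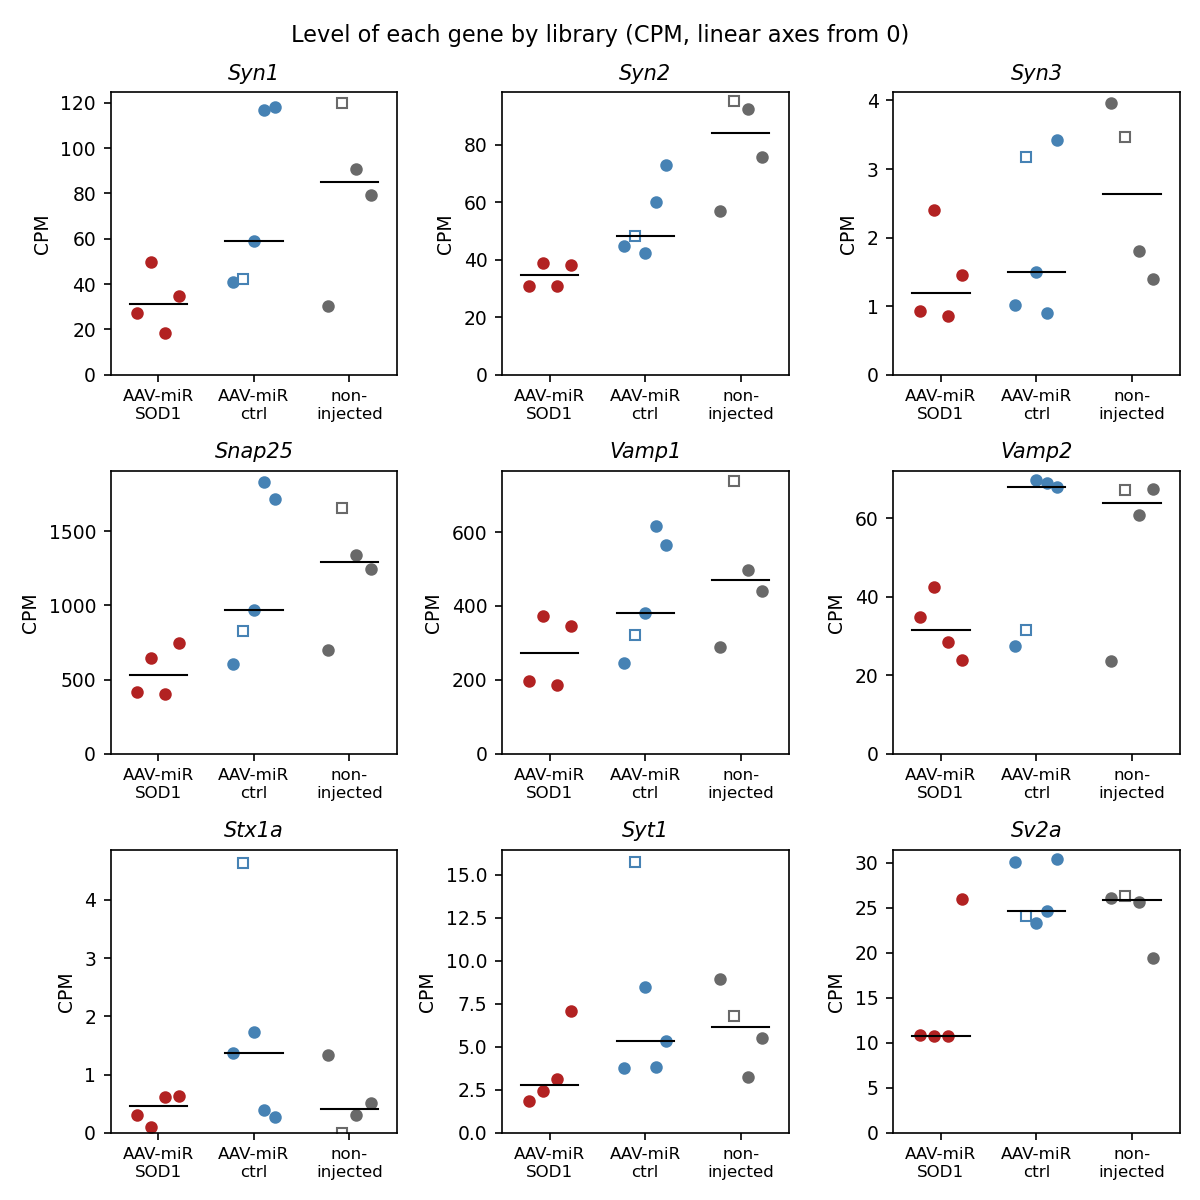
Level of each of the 9 genes, in CPM on a linear axis from 0, in the 13 libraries by group. Points are libraries, horizontal lines are group medians and open squares are the 2 libraries whose header conflicts with the label. For Syn2 the AAV-miR SOD1 libraries lie below both control groups, which overlap each other; for the other 8 genes AAV-miR SOD1 overlaps with the controls.

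Syn1 (ENSMUSG00000037217, chrX:20860511-20921004, minus strand), the most abundant synapsin by median, varied more between mice. It was at 27.1, 49.7, 18.5 and 34.9 CPM in AAV-miR SOD1, 41.0, 42.2, 59.0, 117 and 118 CPM in AAV-miR ctrl, and 30.4, 119.7, 90.8 and 79.5 CPM in non-injected mice, with replicates in the order given for Syn2. AAV-miR SOD1 replicate 2 exceeded 2 AAV-miR ctrl libraries and 1 non-injected library. The log2 difference was -1.21 ± 0.44 from AAV-miR ctrl (edgeR, adjusted p = 0.277) and -1.30 ± 0.46 from non-injected mice (adjusted p = 0.152). Neither passed the threshold.

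Syn3 (ENSMUSG00000059602, chr10:86055125-86498896, minus strand) was measured by few reads, 18 to 101 counts per library. It was at 0.935, 2.40, 0.853 and 1.45 CPM in AAV-miR SOD1, 1.02, 3.18, 1.50, 0.894 and 3.42 CPM in AAV-miR ctrl, and 3.97, 3.47, 1.8 and 1.40 CPM in non-injected mice. The groups overlapped, with log2 differences of -0.51 ± 0.54 and -0.91 ± 0.56 (edgeR, adjusted p = 0.696 and 0.374).

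Each synapsin gene hosts a tissue inhibitor of metalloproteinase gene on the opposite strand, and the library kit does not mark strand. In GENCODE M21, Timp1 shares 0 exon bases with Syn1, Timp4 shares 90 with Syn2 (1.28% of Syn2 exon bases) and Timp3 shares 1733 with Syn3 (14.1%). Reads in shared stretches cannot be assigned to one partner. Syn3 is the synapsin for which this matters most. The log2 difference between AAV-miR SOD1 and AAV-miR ctrl was 0.26 ± 0.38 for Timp1, -0.03 ± 0.32 for Timp3 and -0.27 ± 0.32 for Timp4 (edgeR, adjusted p = 0.794, 0.977 and 0.726). Against non-injected mice the values were 0.68 ± 0.41, -0.35 ± 0.34 and -0.33 ± 0.33.

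Among the SNARE genes, Snap25 (ENSMUSG00000027273, chr2:136713453-136782428, plus strand) was the most abundant. It was at 416, 645, 405 and 745 CPM in AAV-miR SOD1, 606, 829.7, 967, 1835 and 1721 CPM in AAV-miR ctrl, and 701, 1658, 1339.6 and 1249 CPM in non-injected mice. In each control group 1 library, replicate 1 of AAV-miR ctrl and replicate 2 of the non-injected mice, fell within the AAV-miR SOD1 range. The log2 difference was -1.11 ± 0.37 from AAV-miR ctrl and -1.16 ± 0.39 from non-injected mice (edgeR, adjusted p = 0.270 and 0.147). DESeq2, run as an alternative, gave -1.12 with an adjusted p of 0.0471 against non-injected mice, where it called 996 of 17403 genes.

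Vamp1 (ENSMUSG00000030337, chr6:125215551-125245964, plus strand) is the vesicle SNARE of motor terminals. It was at 198, 373, 186 and 346 CPM in AAV-miR SOD1, 247, 322, 382, 616 and 565 CPM in AAV-miR ctrl, and 288, 738, 498 and 439 CPM in non-injected mice. Both control groups overlapped the AAV-miR SOD1 range, with log2 differences of -0.63 ± 0.34 and -0.83 ± 0.36 (edgeR, adjusted p = 0.410 and 0.209).

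Vamp2 (ENSMUSG00000020894, chr11:69088490-69092384, plus strand), the vesicle SNARE of most forebrain synapses, was at 34.8, 42.5, 28.3 and 23.8 CPM in AAV-miR SOD1. The values were 27.4, 31.5, 69.7, 68.8 and 67.8 CPM in AAV-miR ctrl and 23.7, 67.1, 60.7 and 67.4 CPM in non-injected mice. Of the 9 control libraries, 6 lay above the AAV-miR SOD1 range and 3 did not. The log2 differences were -0.71 ± 0.36 and -0.76 ± 0.37 (edgeR, adjusted p = 0.374 and 0.266).

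Stx1a (ENSMUSG00000007207, chr5:135023482-135051100, plus strand), a plasma membrane SNARE, was near the counting floor. Its counts were 7, 2, 13 and 10 in AAV-miR SOD1, 31, 96, 23, 15 and 8 in AAV-miR ctrl, and 29, 0, 12 and 17 in non-injected mice. The 96 counts were in AAV-miR ctrl replicate 3 and the 0 in non-injected replicate 3, the 2 libraries with a conflicting header. The log2 difference was -2.01 ± 1.02 from AAV-miR ctrl and -0.38 ± 1.04 from non-injected mice (edgeR, adjusted p = 0.381 and 0.869). Without non-injected replicate 2 the latter became 0.63, so its direction rests on that library.

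Syt1 (ENSMUSG00000035864, chr10:108497650-109010982, minus strand), the calcium sensor of forebrain synapses, was at 1.83, 2.45, 3.13 and 7.08 CPM in AAV-miR SOD1, 3.76, 15.8, 8.47, 3.81 and 5.31 CPM in AAV-miR ctrl and 8.95, 6.78, 3.27 and 5.52 CPM in non-injected mice. AAV-miR SOD1 replicate 4 was the highest of its group and exceeded 6 of the 9 controls. The log2 differences were -1.04 ± 0.52 and -0.76 ± 0.54 (edgeR, adjusted p = 0.372 and 0.442). The first was -0.51 without AAV-miR ctrl replicate 3 and -1.59 without AAV-miR SOD1 replicate 4.

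Sv2a (ENSMUSG00000038486, chr3:96181151-96195521, plus strand) had a control range that spanned a smaller factor, from lowest to highest library, than that of any of the other 8 genes. It was at 10.8, 10.7, 10.7 and 25.9 CPM in AAV-miR SOD1, 30.0, 24.0, 23.3, 24.6 and 30.4 CPM in AAV-miR ctrl and 26.1, 26.3, 25.6 and 19.4 CPM in non-injected mice. Replicates 1, 2 and 3 of AAV-miR SOD1 lay below every control library, and replicate 4 lay among the controls. The log2 differences were -0.87 ± 0.27 and -0.75 ± 0.28 (edgeR, adjusted p = 0.256 and 0.167). Without AAV-miR SOD1 replicate 4 they were -1.31 and -1.18.

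**Figure D3:**
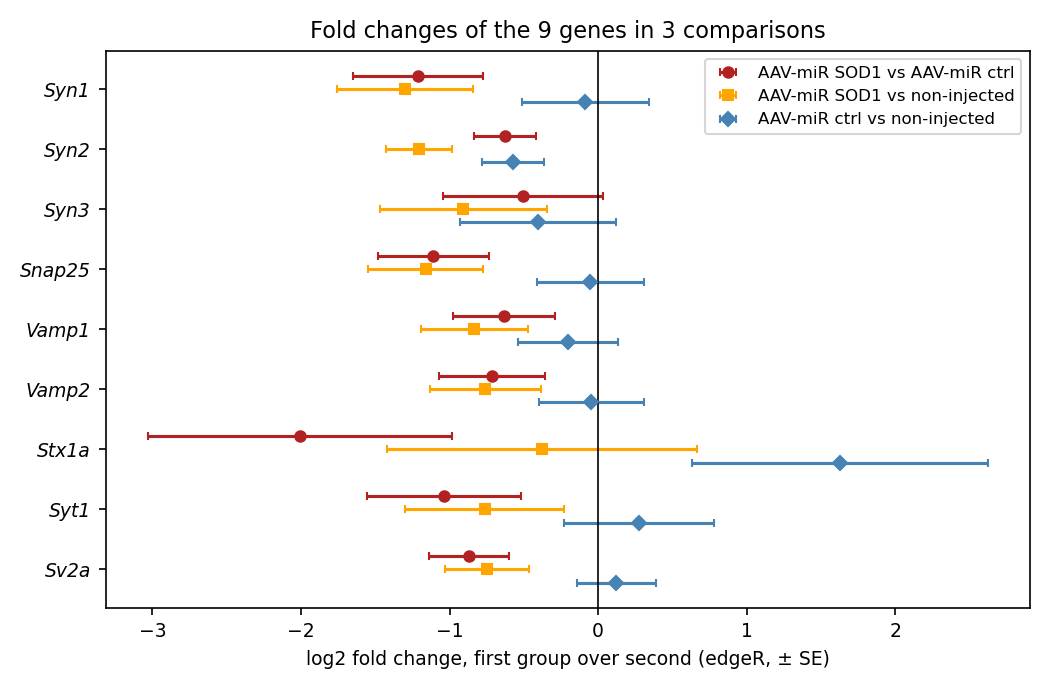
Log2 fold change of each of the 9 genes in each pair of groups, from edgeR, with the first-named group of the legend over the second. Points are fitted values and bars are the standard error; all 9 genes are below 0 in both comparisons with AAV-miR SOD1, which share the AAV-miR SOD1 libraries.

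All of the 8 genes other than Syn2 had a fitted difference below 0 against AAV-miR ctrl, with a median of -0.95 against -0.04 over all 17403 genes, of which 53.7% were below 0. None of the 8 passed an adjusted p of 0.05 in edgeR, DESeq2 or limma-voom, which called 0, 173 and 0 of all 17403 genes. At an unadjusted p under 0.05, Sv2a, Snap25 and Syn1 (3 of 8) were lower, where 8.54% of all genes were lower and 5.99% higher. Against non-injected mice, all 8 were again below 0 with a median of -0.80 (all genes -0.09, of which 55.1% below 0). Vamp1 joined the other 3 at an unadjusted p under 0.05, making 4 of 8 where 11.5% of genes were lower and 9.36% higher. None passed the adjusted threshold in edgeR or limma-voom, where 0% of all genes passed. DESeq2 called Snap25 alone of the 8, where it called 996 of all 17403 genes. Without both libraries that have a conflicting header, 1 of 8 was lower than in non-injected mice at an unadjusted p under 0.05. Of the 17771 genes then tested, 930 were lower.

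Against both control groups together, Syn1 differed by -1.26 ± 0.41, Snap25 by -1.13 ± 0.34 and Sv2a by -0.81 ± 0.25 on the log2 scale (edgeR, adjusted p = 0.114, 0.104 and 0.106). Vamp1 (-0.73 ± 0.32) and Vamp2 (-0.74 ± 0.33) brought the count at an unadjusted p under 0.05 to 5 of 8, where 12.1% of all genes were lower and 10.2% higher. All 8 were below 0 with a median of -0.85, as were 54.2% of all genes, whose median was -0.06. None of the 8 passed the adjusted threshold in edgeR, and 0% of all genes did. DESeq2 called Snap25, Syn1 and Sv2a (adjusted p = 0.0182, 0.0309 and 0.0359), and limma-voom with sample quality weights called Snap25 (adjusted p = 0.0413), where they called 1480 and 1461 of all 17403 genes. Leaving out AAV-miR ctrl replicate 1, Snap25 passed in edgeR as well (-1.22 ± 0.32, adjusted p = 0.0337), as did 1694 of the 17217 genes then tested. The AAV-miR SOD1 libraries are common to all 3 comparisons.

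Between AAV-miR ctrl and non-injected mice, the 8 genes other than Syn2 had a median log2 difference of -0.05, and 5 of the 8 were below 0 against 52% of all genes. None passed an unadjusted p under 0.05, where 2.24% of all genes were lower and 1.38% higher. Snap25 (-0.05 ± 0.36), Vamp2 (-0.05 ± 0.35) and Syn1 (-0.09 ± 0.43) were nearest 0, although each turned positive when the headers were followed (0.40, 0.39 and 0.58). Stx1a had the largest value, 1.63 ± 0.99, which turned to -1.18 with the headers.

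The balance between alternative isoforms was compared within libraries, as the difference of 2 paralogs in log2 CPM. Vamp1 exceeded Vamp2 by 3.05 ± 0.60 (SD, n = 4) in AAV-miR SOD1, 3.04 ± 0.34 (n = 5) in AAV-miR ctrl and 3.20 ± 0.41 (n = 4) in non-injected mice. The group means differed by 0.01 and -0.15 (two-sided exact permutation tests, p = 0.889 and 0.714). Syt1 minus Syt2 was -4.32 ± 0.75, -4.12 ± 1.21 and -4.47 ± 1.06 in the same order of groups (exact permutation p = 0.794 and 0.857). Sv2a minus Sv2b was -2.19 ± 0.39, -1.88 ± 0.48 and -2.15 ± 0.39 (exact permutation p = 0.349 and 0.914). All 6 tests had a Benjamini-Hochberg adjusted p of 0.914, where the smallest unadjusted p possible was 0.00794 against AAV-miR ctrl and 0.0286 against non-injected mice. No difference in isoform balance was detected with these numbers of mice. The paralogs themselves differed from AAV-miR ctrl by -0.79 ± 0.37 (Syt2) and -0.67 ± 0.28 (Sv2b) on the log2 scale (edgeR, adjusted p = 0.346 and 0.305).

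Motoneuron marker genes were lower in value in the same libraries. Of the 7 markers, 5 were lower at an unadjusted p under 0.05 against AAV-miR ctrl and all 7 against non-injected mice, where 8.54% and 11.5% of all genes were lower, with median log2 differences of -0.91 and -1.32. None passed the adjusted threshold in edgeR or limma-voom, and DESeq2 called 0 and 6, where it called 173 and 996 of all 17403 genes. All 6 erythroid markers were higher at an unadjusted p under 0.05 in both comparisons, where 5.99% and 9.36% of all genes were higher. The sum of the 7 markers does not weigh them evenly. In AAV-miR SOD1, Chat, Slc5a7, Slc18a3, Isl1 and Mnx1 had medians of 56.8, 167, 187, 3.84 and 6.91 CPM. The median of the sum was 1775 CPM, so by these medians most of it came from Prph and Nefh. Divided by the summed motoneuron markers of the same library, a measure chosen after the values were seen, Syn2 was at 15.6 to 22.5 CPM per 1000 marker CPM in AAV-miR SOD1. The same ratio was 13.3 to 22.4 in AAV-miR ctrl and 18.0 to 25.7 in non-injected mice, with medians of 19.5, 18.6 and 20.4. On this scale the groups overlapped for Syn2. The median ratios for Vamp1 were 142, 136 and 124 and those for Vamp2 18.8, 15.2 and 13.1, with ranges that overlapped between all groups. The ratios for Snap25 (279, 404 and 315) and Syn1 (17.4, 25.7 and 20.8) were lowest in AAV-miR SOD1, and their ranges overlapped those of both control groups. Those for Sv2a (7.33, 10.1 and 5.46) were lowest in non-injected mice, as were those for Syn3, Syt1 and Stx1a, and their ranges also overlapped. These ratios are a description, and the part of motoneuron content in the release gene values was not tested.

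**Figure D4:**
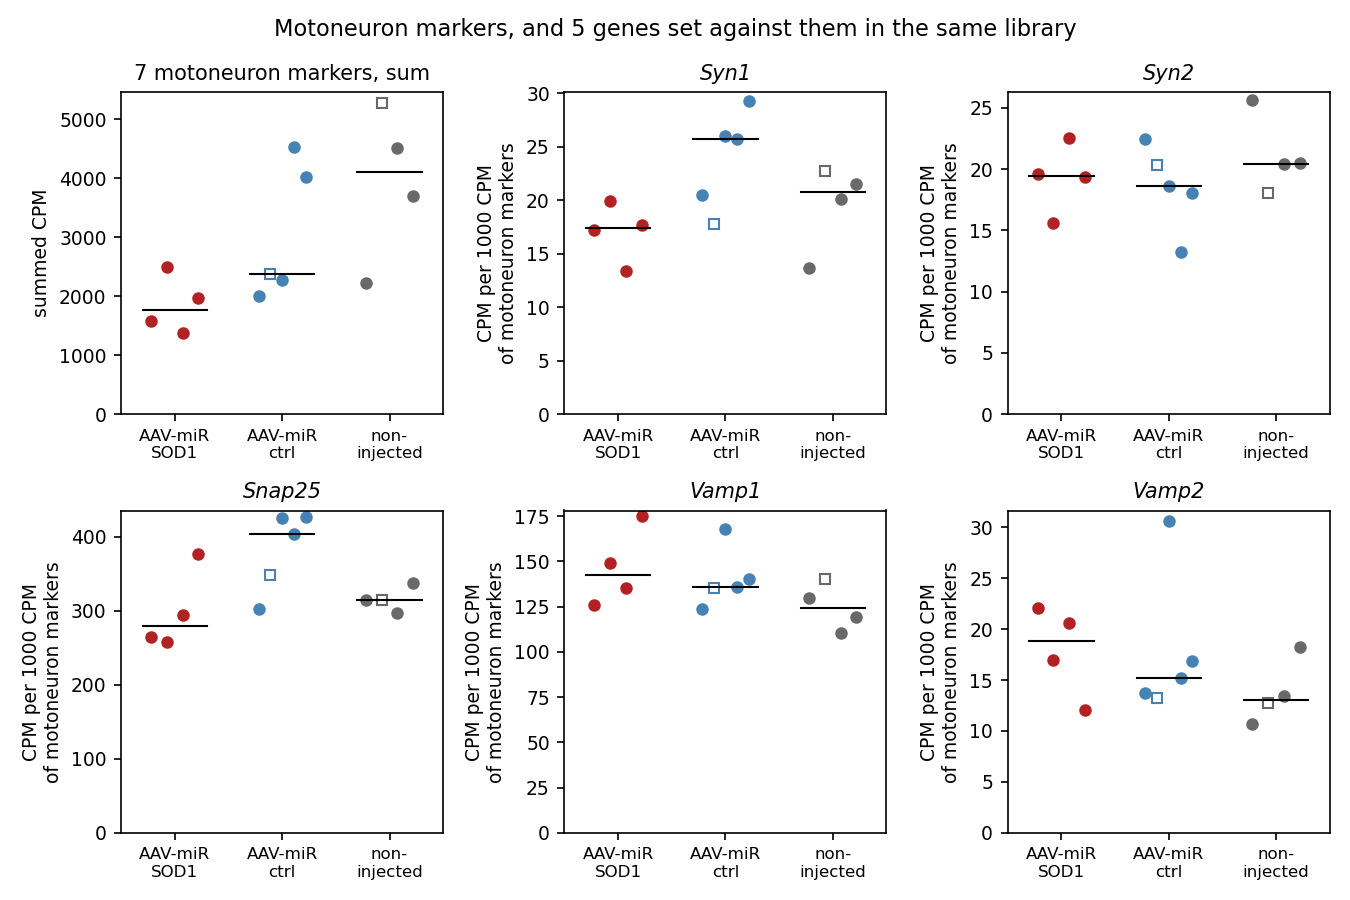
Summed CPM of the 7 motoneuron markers in the first panel, and the level of 5 release genes per 1000 CPM of that sum in the others, by group. Points are libraries, open squares the libraries with a conflicting header and horizontal lines medians; the Syn2 groups, which do not overlap in CPM, overlap on this scale (15.6 to 22.5, 13.3 to 22.4 and 18.0 to 25.7).

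Other genes of release and recycling were examined as 6 lists. Of the 67 genes reported from them, 61 passed the filter; Syt10, Cplx3, Doc2a, Doc2b and Slc17a7 were below it, and Vamp7 was not analysed here. The vesicular acetylcholine transporter Slc18a3 is in the transporter list and among the motoneuron markers. At an unadjusted p under 0.05, 30 of these 61 were lower in AAV-miR SOD1 than in AAV-miR ctrl and 0 higher, where 8.54% of all 17403 genes were lower and 5.99% higher. Their median log2 difference was -0.64, against -0.04 over all genes. Against non-injected mice 30 were lower and 0 higher, where 11.5% of all genes were lower and 9.36% higher, also with a median of -0.64 (all genes -0.09). Between the control groups 0 were lower and 1 was higher, where 2.24% of all genes were lower and 1.38% higher. The 1 was Synpr (a vesicle protein of the synaptophysin family, named after its value was seen), at 3.22 ± 1.32 on the log2 scale. Its mean log2 CPM was low, 1.86 in AAV-miR ctrl and -0.24 in non-injected mice. None passed the adjusted threshold in edgeR or limma-voom in these 3 comparisons, and DESeq2 called 3, 10 and 0, where it called 173, 996 and 2 of all 17403 genes. Against both control groups together edgeR called 0 of the 61, DESeq2 16 and limma-voom 12, where they called 0, 1480 and 1461 of all genes.

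By role, 5 of 9 SNARE and SM protein genes were lower at an unadjusted p under 0.05 against AAV-miR ctrl (median -0.58), where 8.54% of all genes were lower. The count was 6 of 11 for calcium sensors and clamps (median -0.74) and 10 of 14 for vesicle proteins (median -0.89). It was 5 of 10 for vesicle endocytosis (median -0.58), 3 of 14 for active zone scaffolds (median -0.48) and 1 of 3 for vesicular transporters (median -0.44). Against non-injected mice the counts were 5, 5, 9, 6, 4 and 1 in the same order, where 11.5% of all genes were lower.

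**Figure D5:**
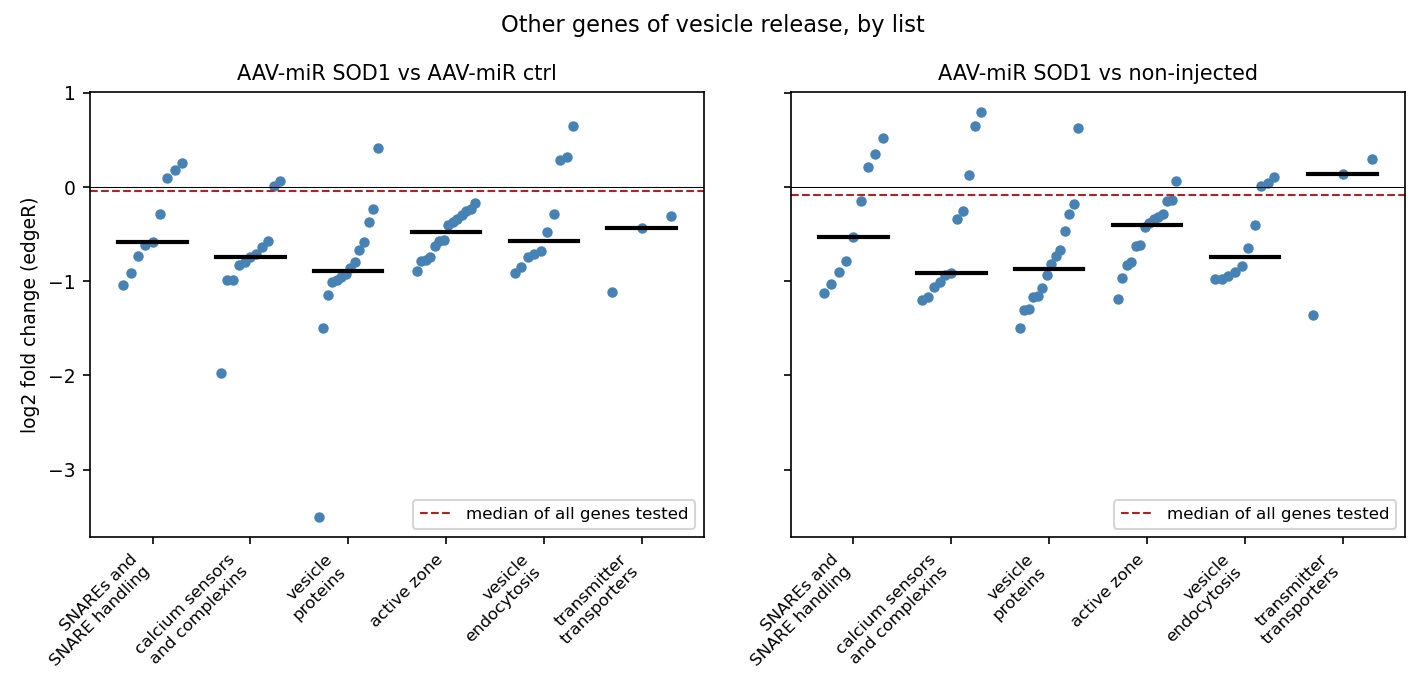
Log2 fold change of the tested genes of each release gene list in AAV-miR SOD1 against AAV-miR ctrl and against non-injected mice, from edgeR. Each point is a gene, each short line a list median and the dashed line the median of all genes tested; most points lie below 0, with the median of vesicle proteins at -0.89 against AAV-miR ctrl.

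The genes with the smallest p against AAV-miR ctrl on the low side came from several steps. Amph, which links clathrin coats to dynamin, differed by -0.91 ± 0.24, and its AAV-miR SOD1 libraries all lay below the AAV-miR ctrl libraries (edgeR, adjusted p = 0.256). The same absence of overlap held for 4 of the 61 release genes and for 2.46% of all 17403 genes. The vesicle proteins Syngr3 (-1.49 ± 0.40), Syp, or synaptophysin (-1.14 ± 0.39), and Rab3c, a vesicle GTPase (-0.96 ± 0.34), had adjusted p of 0.256, 0.270 and 0.277. The SNARE recycling ATPase Nsf, whose AAV-miR SOD1 libraries also lay below all of AAV-miR ctrl, differed by -0.91 ± 0.30 and Snap47 by -1.04 ± 0.32 (adjusted p = 0.270 and 0.256). Syt5 (-1.97 ± 0.57) and Sh3gl2, or endophilin A1 (-0.84 ± 0.29), completed these 8 genes (adjusted p = 0.256 and 0.270). Against non-injected mice, Syngr3 differed by -1.50 ± 0.42, Syp by -1.30 and Rab3c by -1.29, each with an adjusted p of 0.140 (edgeR). Amph, Snap47, Nsf and Sh3gl2 differed by -0.98, -1.12, -1.03 and -0.98, also with an adjusted p of 0.140. There the AAV-miR SOD1 libraries of Nsf overlapped with the non-injected ones. Syt5 differed by -1.06 ± 0.57 (edgeR, adjusted p = 0.306).

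On the high side, the 8 genes with the smallest p against AAV-miR ctrl were Ston2 (0.65), Rab3d (0.42), Itsn1 (0.33), Ap2a2 (0.29), Vamp3 (0.26), Snap23 (0.18), Snap29 (0.09) and Cplx2 (0.07), none of them past an unadjusted p of 0.05. Vamp3 and Snap23 are SNAREs used outside neurons as well.

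The genes whose profile over the 13 libraries was closest to that of Syn2 were Lgi2, Zfyve28, Pmvk, Rufy3 and Tmem132e. The measure was the root mean square difference in log2 CPM after each gene's own mean was removed, and it was 0.16 to 0.18 for these 5 genes, against a spread of 0.53 for Syn2 itself. Of the 17402 genes compared, Vamp1 ranked 643 (0.33), Snap25 1096 (0.37), Sv2a 2607, Vamp2 3241, Syn1 3371, Syn3 6798, Syt1 10232 and Stx1a 16791. The last 3 differed from Syn2 by more (0.67, 0.84 and 1.71) than the spread of Syn2 itself. Over the 9 control libraries alone the closest genes were Zbtb25 (0.13), Aatk (0.16), Snapc2 (0.17), Gramd1a (0.17) and Zfyve28 (0.17), so Zfyve28 was the 1 gene in both sets of 5. The 8 release genes ranked lower there, from Vamp1 at 1199 and Snap25 at 2616 to Stx1a at 17187. The libraries share depth and captured material, and the likeness is a description.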

How the data were processed

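Laser-captured motoneurons of 13 mice were sequenced after low-input full-length cDNA amplification (5 to 6 ng input) and tagmentation of 200 pg cDNA, per the labels' protocols. Each mouse has its own deposited table of raw counts for every gene. The submitters' processing notes name cutadapt 1.8, STAR 2.5.2b, HTSeq 0.6.1 and GRCm38, and the annotation release and strand setting are not given in the sources used here. Summary rows were left out of library sizes; ambiguous reads were 4.13% to 5.49% of assigned plus ambiguous reads. Symbols came from GENCODE M21 (48349 of 48709 identifiers), and promoters from RefSeq.

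Genes were filtered with filterByExpr (minimum count 10) and fitted over all 13 libraries in 3 groups with TMM scaling and edgeR 4.0.16 quasi-likelihood tests in R 4.3.3, with Benjamini-Hochberg adjustment over 17403 genes and a threshold of 0.05. Except for the level of 3 counts, CPM use TMM-scaled library sizes, and log2 CPM a prior count of 2. Isoform differences were tested by two-sided exact permutation over libraries. Alternatives were RLE and upper quartile scaling, looser and stricter filters, DESeq2 1.42.0, limma-voom (limma 3.58.1), the compared groups alone, a replicate block, the column headers in place of labels, subsets of libraries and leaving out each library. The fit was tested on simulated data. Where nothing says otherwise, spread between mice includes technical spread from capture and amplification. The genes and gene lists were chosen with earlier results of these data known. The text names the 9 genes, the 8 release genes with the smallest p in each direction against AAV-miR ctrl, the paralogs Syt2 and Sv2b, the Timp genes, and the 5 genes most like Syn2 over 13 and over 9 libraries. Some listed items are not reported here and were left out of the list counts and isoform comparisons; the fit and its adjustment cover all 17403 genes.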

Additional observations from a re-analysis of the deposited data

Results flagged for a closer look

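Among 36 groups (9 genes and 3 paralog differences, each in 3 groups), 3 held a library far from the rest of its group, where chance flags about 1 in 20. Vamp2 in non-injected replicate 2 was at a log2 CPM of 4.57, with the other 3 mice at 5.93 to 6.08. Sv2a in AAV-miR SOD1 replicate 4 was at 4.70, with the other 3 mice at 3.43 to 3.45. Sv2a in non-injected replicate 6 was at 4.28, with the others at 4.68 to 4.72.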

How the results depend on the processing

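For the 8 genes other than Syn2, the log2 differences in the comparisons with AAV-miR SOD1, which share libraries, kept their sign in 566 of 568 values under alternatives. The 2 exceptions were Stx1a against non-injected mice with limma-voom (0.11) and without non-injected replicate 2 (0.63, in a leave-one-out range from -0.78). The sizes were less stable than the signs. With libraries numbered 1 to 4, the difference from AAV-miR ctrl went from -1.21 to -0.52 for Syn1 and from -1.11 to -0.52 for Snap25. It went from -0.63 to -0.18 for Vamp1, and for Stx1a it grew from -2.01 to -2.63. The part of library depth in these changes was not tested. Syn2, whose sign the choice of the gene fixes, ranged from -0.86 to -0.37 against AAV-miR ctrl and from -1.26 to -0.95 against non-injected mice.

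The number of genes past the adjusted threshold, 0 with edgeR, was 173 against AAV-miR ctrl, 996 against non-injected mice, 1480 against both and 2 between the control groups with DESeq2. Against both control groups it was 1461 with limma-voom and 1 when every gene with at least 1 count was tested. Leaving out each library gave 0 to 1694 calls against both, with 1694 without AAV-miR ctrl replicate 1, 121 without AAV-miR SOD1 replicate 3 and 1 without AAV-miR SOD1 replicate 4. Of the 8 genes other than Syn2, DESeq2 called 1 against non-injected mice and 3 against both control groups, limma-voom called 1 against both, and leaving out each library gave 0 to 1 against both.

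At an unadjusted p under 0.05, 3 of these 8 genes were lower against AAV-miR ctrl in the main fit. The count was 5 with DESeq2, 5 with the headers followed and 2 to 6 on leaving out each library. Of all genes tested, 1486 were lower in the main fit, 1603 with DESeq2, 2126 with the headers and 784 to 1981 in leave-one-out fits. Against non-injected mice (4) the count of the 8 genes was 2 with the groups compared alone and 2 with the replicate block. It was 1 without both libraries with a conflicting header and 2 to 5 on leaving out each library. The counts over all genes were 2006 in the main fit, and 1424, 578, 930 and 1382 to 2113 in the same order. Against both (5) the count of the 8 genes was 2 with the block and 3 without both conflicting libraries. It was 3 with libraries numbered 1 to 4 and 3 to 5 on leaving out each library. The counts over all genes were 2101 in the main fit, and 813, 1377, 1124 and 1306 to 2430 in the same order. The 8 pairs of same-numbered libraries had correlations of -0.19 to 0.24 (median 0.023), 3 of them over 0.1. The 48 pairs with different numbers had a median of -0.007, 15 of them over 0.1. Of 13 libraries, 3 correlated best with one of their own number. Pairing of mice by number was not detected, and 8 pairs are too few to exclude it. With the block 0 genes passed the adjusted threshold in any comparison.

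Between AAV-miR ctrl and non-injected mice, where no gene was called, signs turned. With the headers followed the log2 differences were 0.58 (Syn1), 0.40 (Snap25), 0.40 (Vamp1), 0.39 (Vamp2), -1.18 (Stx1a) and -0.57 (Syt1). Without both conflicting libraries they were 0.35 (Syn1), 0.24 (Snap25), 0.17 (Vamp1), 0.23 (Vamp2) and -0.14 (Syt1). Upper quartile scaling gave 0.0045 for Vamp2, and libraries numbered 1 to 4 gave -0.0073 for Sv2a. Leave-one-out ranges were -0.35 to 0.17 (Syn1), -0.26 to 0.12 (Snap25), -0.38 to 0.062 (Vamp1), -0.28 to 0.12 (Vamp2) and -0.20 to 0.53 (Syt1).

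Isoform differences, none of them past the threshold, also changed sign. With the headers, Vamp1 minus Vamp2 against AAV-miR ctrl was -0.0084, and Syt1 minus Syt2 was 0.29 against AAV-miR ctrl and -0.46 against non-injected mice. Without both conflicting libraries Syt1 minus Syt2 was 0.21 and -0.0030. With libraries numbered 1 to 4, Syt1 minus Syt2 was -0.34 and Sv2a minus Sv2b 0.040 against non-injected mice. Leave-one-out ranges were -0.26 to 0.19 and -0.42 to 0.035 for Vamp1 minus Vamp2, and -0.53 to 0.21 and -0.18 to 0.64 for Syt1 minus Syt2. For Sv2a minus Sv2b against non-injected mice the range was -0.22 to 0.11. The cause of these changes was not tested. Depth limits Stx1a and Syn3, which have at most 101 counts in any library.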
